A study of Mus musculus with 4 samples.

Results

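The troponin genes of heart and skeletal muscle were followed across the 4 arrays of the series. They were taken as all probe sets that the platform annotation assigns to Tnni1, Tnni2, Tnni3, Tnnt1, Tnnt2, Tnnt3, Tnnc1 or Tnnc2 alone. The rule found 8 of 8 genes, with 12 probe sets among 45037, in a table that holds 18193 named genes. Tnnt2 and Tnni2 had 3 probe sets each and the other genes 1. The study measured total RNA of mouse heart and muscle on oligonucleotide arrays, with 1 array for each genotype (d/d or f/f) in each tissue. The d/d mice lack manganese superoxide dismutase (MnSOD, gene Sod2) in heart and muscle, after recombination of a floxed gene by a Cre transgene under the muscle creatine kinase (MCK) promoter. The f/f mice are homozygous for the floxed gene and are the controls. The labels do not state the age or number of the animals, which muscle was sampled, whether both tissues were taken from 1 mouse, or whether the controls carried the transgene.

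Troponin is the calcium switch of striated muscle. On the thin filament, troponin C binds calcium, troponin I holds the filament in its inhibited state until calcium is bound, and troponin T anchors the complex to tropomyosin. Heart, slow fibres and fast fibres use different genes for these subunits. Tnni3 and Tnnt2 encode the cardiac I and T subunits, Tnni1 and Tnnt1 the slow skeletal ones, and Tnni2 and Tnnt3 the fast skeletal ones. Tnnc1 serves both heart and slow fibres, and Tnnc2 serves fast fibres. The developing heart makes Tnni1, which Tnni3 replaces around birth, and developing skeletal muscle makes Tnnt2. In the RefSeq gene table (assembly GRCm38.p6) the I and T genes lie in pairs. Tnnt1 and Tnni3 are neighbours with 0 protein-coding genes between them, Tnni1 and Tnnt2 have 1 between them, and so do Tnni2 and Tnnt3.

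Signals below are linear intensities after the arrays were scaled to a common trimmed mean, and a floor of 7.51 stands for background. The floor is the mean of the 40th percentiles of the arrays, and no separate measure of background was used. That between 58.0% and 61.1% of probe sets were above it on each array follows from this setting. A gene with several probe sets is represented by the brightest. A gene counted as different between 2 arrays if the floored signals lay at least 2-fold apart and the brighter one exceeded the floor. There is 1 array per group, so a fold between 2 arrays has no replicate check. As a yardstick, the log2 difference between genotypes had an SD of 0.388 between probe sets of the same gene in heart and 0.400 in muscle. For probe sets above 1000 on both arrays the SD was 0.132 in heart (121 genes) and 0.0941 in muscle (148 genes). These SDs come from probe sets read on the same 2 arrays, so they do not measure variation between animals. All 4 probe sets of Sod2 were below f/f in the d/d heart, with log2 differences of -0.21 to -1.22, and those in muscle ran from -0.44 to 0.06. The labels do not say which exons were removed or where these probes lie, so Sod2 does not check them. The cardiac myosin gene Myh6 read 7171 in f/f heart and 6827 in d/d heart. The fast muscle actinin gene Actn3 read 8430 in f/f muscle and 10013 in d/d muscle and was at the floor in both hearts.

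In muscle, the cardiac troponin genes read lower in the d/d array than in the f/f array, while the fast genes were nearly level. The cardiac genes here are Tnni3, Tnnt2 and Tnnc1, of which Tnnc1 is also the slow fibre gene. In heart, the cardiac troponin genes differed little between d/d and f/f on their brightest probe sets. Of the 8 genes measured in muscle, 3 were at least 2-fold lower in d/d and 0 were higher, against 3.25% of 14256 genes lower and 2.64% higher. Of the 6 measured in heart, 1 was at least 2-fold lower and 0 were higher, against 4.22% of 13836 genes lower and 3.94% higher. That 1, Tnnc2, and Tnni1 were above the floor in f/f heart alone and could only read lower in d/d. Of the 4 genes above it on both heart arrays, 0 passed 2-fold and the median log2 difference was -0.09. In muscle all 8 were above the floor on both arrays and their median was -0.09. The medians over all genes measured were -0.003 in muscle and -0.05 in heart.

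**Figure D1:**
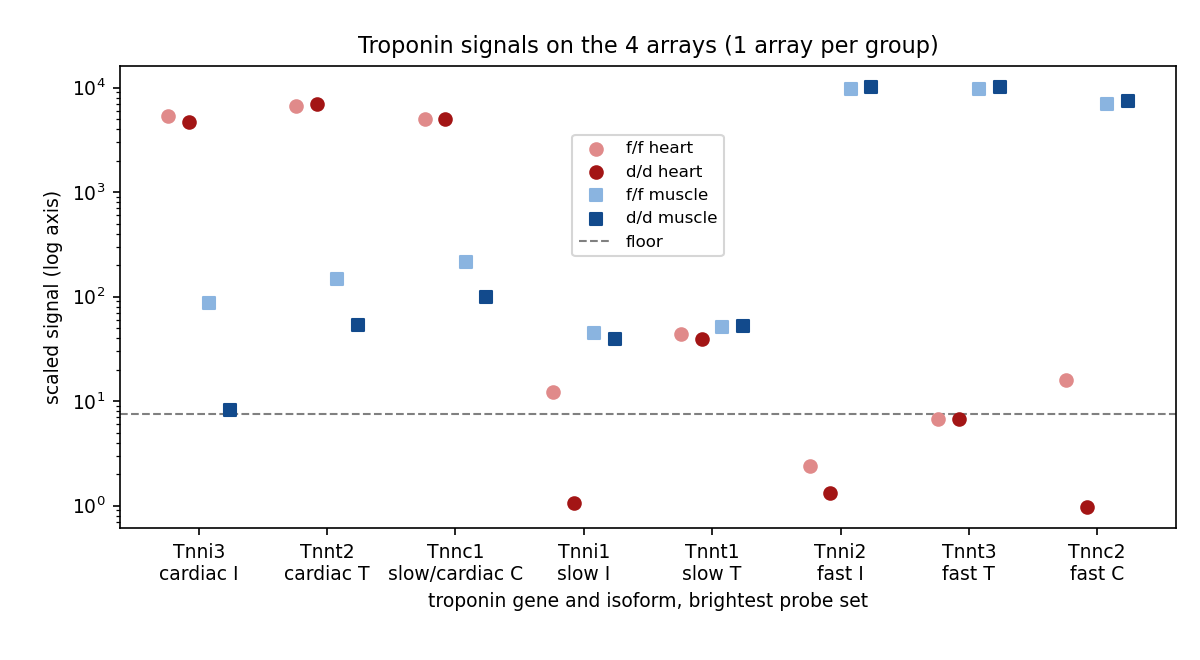
Scaled signal of the brightest probe set of each troponin gene (log axis) on each of the 4 arrays, 1 point per array, with the floor of 7.51 as a dashed line. The cardiac genes sit at 4667 or higher on both heart arrays and between 8.30 and 215.9 in muscle, the fast genes sit at 7005 or higher in muscle and at most at 16.1 in heart, and Tnnt1 is level across the 4 arrays.

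Tnni3, cardiac troponin I and the subunit that protein kinase A phosphorylates in the heart, read 5308 in f/f heart and 4667 in d/d heart. In muscle it read 86.8 in f/f and 8.30 in d/d, the latter just above the floor. The heart arrays were both high and close, f/f muscle was far below them, and d/d muscle was lower again. The genotype difference was -0.19 in heart and -3.39 in muscle on the log2 scale, the latter a 10.5-fold difference. The size of the muscle difference depended on the floor, since it was -2.20 with a floor at the 60th percentile and -2.08 with a pseudocount of 16. With the floor of 7.51 it was the lowest log2 difference of the 14256 genes measured. Fewer cells that carry a transcript and less of it per cell cannot be told apart in bulk RNA.

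Tnnt2, cardiac troponin T, read 6623 in f/f heart and 7032 in d/d heart on its brightest probe set, and 146.6 in f/f muscle against 53.8 in d/d muscle. Its second probe set read 6507, 7031, 162.8 and 38.0 in the same order. The muscle differences of these probe sets were -1.45 and -2.10, or 2.72-fold and 4.29-fold lower in d/d, and those in heart were 0.09 and 0.11. The highest signals on the f/f and d/d heart arrays were 7970 and 7867, so both probe sets lay at the upper end of the range read in heart. The third, much dimmer probe set read 344.5 in f/f heart, 243.6 in d/d heart, 8.93 in f/f muscle and 6.23 in d/d muscle, the last below the floor. It differed by -0.50 in heart, on the opposite side of 0 from the brighter ones, and in muscle it gave only a bound of at least 1.19-fold lower. By the muscle difference of its brightest probe set, Tnnt2 ranked 114th from the lowest.

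Tnnc1, the calcium-binding subunit of heart and slow fibres, read 5000.0 in f/f heart and 4993 in d/d heart, a log2 difference of -0.002. It read 215.9 in f/f muscle and 98.6 in d/d muscle, 2.19-fold lower, a log2 difference of -1.13 that ranked 308th from the lowest. In all 3 cardiac genes the order of the arrays was therefore heart, f/f muscle, d/d muscle. The heart pair of Tnnt2 and that of Tnnc1 lay within the SD of 0.132 between bright probe sets of a gene, and that of Tnni3 lay within 0.388 but not within 0.132.

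The promoters of the 3 genes that read lower together in d/d muscle are shown with those of Tnnt1, the level neighbour of Tnni3, and of the fast gene Tnnc2. Each is the 250 bases before a RefSeq start site, from the table of build GRCm38.p6, in lower case with matches to the motifs searched in capitals. Tnni3 lies at chr7:4522529-4522778, minus strand. Tnnt2, at the upstream of its 2 listed starts, lies at chr1:135836084-135836333, plus strand. Tnnc1 lies at chr14:31208062-31208311, plus strand. Tnnt1 lies at chr7:4515976-4516225, minus strand. Tnnc2 lies at chr2:164779735-164779984, minus strand.
Tnni3: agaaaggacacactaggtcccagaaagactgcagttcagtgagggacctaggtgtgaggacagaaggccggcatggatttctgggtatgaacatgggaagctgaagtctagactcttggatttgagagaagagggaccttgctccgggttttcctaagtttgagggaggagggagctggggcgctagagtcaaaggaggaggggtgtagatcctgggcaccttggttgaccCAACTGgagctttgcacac
Tnnt2: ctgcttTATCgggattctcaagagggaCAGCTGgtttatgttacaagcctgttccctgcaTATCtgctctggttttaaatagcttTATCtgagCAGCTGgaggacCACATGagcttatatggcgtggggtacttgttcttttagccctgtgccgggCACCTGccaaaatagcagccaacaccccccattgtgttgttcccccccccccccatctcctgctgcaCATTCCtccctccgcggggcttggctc
Tnnc1: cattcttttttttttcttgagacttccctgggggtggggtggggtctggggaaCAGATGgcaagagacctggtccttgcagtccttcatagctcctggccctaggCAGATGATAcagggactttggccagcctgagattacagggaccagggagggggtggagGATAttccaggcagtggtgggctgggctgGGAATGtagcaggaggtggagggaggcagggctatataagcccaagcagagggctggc
Tnnt1: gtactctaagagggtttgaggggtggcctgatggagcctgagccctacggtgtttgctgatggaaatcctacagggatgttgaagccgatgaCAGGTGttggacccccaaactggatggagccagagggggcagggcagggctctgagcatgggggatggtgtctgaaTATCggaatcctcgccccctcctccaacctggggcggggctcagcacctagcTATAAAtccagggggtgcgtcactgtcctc
Tnnc2: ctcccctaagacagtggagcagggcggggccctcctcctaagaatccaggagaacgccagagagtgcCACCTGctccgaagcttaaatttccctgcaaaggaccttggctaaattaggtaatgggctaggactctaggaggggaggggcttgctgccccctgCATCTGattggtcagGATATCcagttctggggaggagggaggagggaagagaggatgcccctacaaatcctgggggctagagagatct

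The table held promoters for 6 of the 8 genes, in 8 windows, since Tnni1 and Tnnt2 have 2 starts each. The 2 windows of Tnni1 overlap, and the matches of the downstream one also lie in the upstream one. Counts over the 8 windows therefore hold these matches in both. Tnni2 and Tnnt3 were not in it. The motifs were searched on both strands over windows of 300 bases, which reach 50 bases past the start. The letters GATA, read by the GATA factors of the heart, occurred in 8 of 8 windows and in 57.9% of all 32851 windows of the table. In Tnni3 both GATA matches lay past the start, so that none is seen in the printed bases, while Tnnt2 had 3 and Tnnc1 had 2 before it. The letters CANNTG, the core read by MyoD and related factors, occurred in 8 of 8 windows against 72.3%. The letters CATTCC, read by TEAD factors, occurred in 2 of 8 windows, those of Tnnt2 and Tnnc1, against 14.7%. They ended 21 bases before the start in Tnnt2 and 52 bases before it in Tnnc1. The letters TATAAA occurred in 1 window, that of Tnnt1, 24 bases before the start, against 13.6%. In Tnnc1 a GATA match overlapped a CANNTG match, and in Tnnc2 both GATA matches overlapped each other on opposite strands. These are matches of letters and not measured binding.

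**Figure D2:**
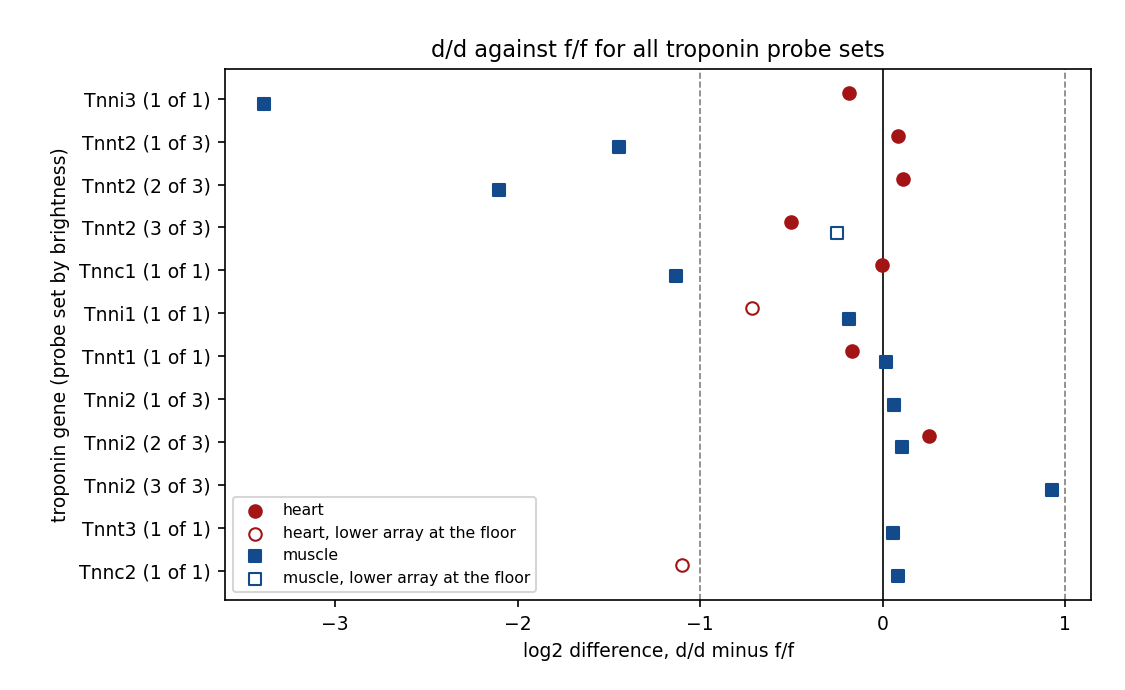
Log2 difference of d/d minus f/f for the troponin probe sets, in heart (circles) and in muscle (squares), with dashed lines at 2-fold and open symbols for differences bounded by the floor. Probe sets are numbered by brightness within a gene, and pairs with both arrays at the floor are not drawn. Tnni3 at -3.39, the 2 brighter Tnnt2 probe sets and Tnnc1 lie beyond 2-fold in muscle, and Tnnc2 lies beyond it in heart.

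The slow skeletal genes were dim in both tissues. Tnni1, slow troponin I, read 45.0 in f/f muscle and 39.6 in d/d muscle, a log2 difference of -0.19. In heart it read 12.3 in f/f and 1.06 in d/d, below the floor, so that the d/d signal was at least 1.64-fold lower. Tnnt1, slow troponin T, read 44.0 in f/f heart, 39.1 in d/d heart, 51.4 in f/f muscle and 52.0 in d/d muscle. This gene had 1 probe set, dim on all 4 arrays, and how far it follows the transcript was not tested. The 4 signals of Tnnt1 spanned 0.41 on the log2 scale, and it was the 1 troponin gene under 2-fold between heart and muscle in both genotypes. Its genotype differences were -0.17 in heart and 0.02 in muscle, and its neighbour Tnni3 differed by -3.39 in the same muscle pair. Tnnt2, the partner of Tnni1 on chromosome 1, likewise differed in muscle while Tnni1 did not reach 2-fold.

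The fast genes were bright and nearly level between the muscle arrays. Tnni2, fast troponin I, read 9717 in f/f muscle and 10128 in d/d muscle on its brightest probe set. Its heart signals, 2.38 in f/f and 1.33 in d/d, were both below the floor. Its second probe set read 4269 in f/f muscle, 4594 in d/d muscle, 10.5 in f/f heart and 12.5 in d/d heart, and the third read 52.5 in f/f muscle and 99.7 in d/d muscle, with 1.28 and 1.86 in f/f and d/d heart, both below the floor. The muscle arrays were far above the heart arrays on every Tnni2 probe set. The differences in muscle were 0.06, 0.11 and 0.93 in order of brightness, so the dimmest probe set came to 1.90-fold, short of 2-fold. Tnnt3, fast troponin T, read 9629 in f/f muscle and 10018 in d/d muscle, a difference of 0.06, and 6.72 in each heart, below the floor. The highest signals on the f/f and d/d muscle arrays were 9717 and 10329, so Tnni2 and Tnnt3 lay at the upper end of the range read. The sign of the small muscle differences turned with the scaling.

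Tnnc2, fast troponin C, read 7005 in f/f muscle and 7413 in d/d muscle, a difference of 0.08. In heart it read 16.1 in f/f and 0.972 in d/d, the latter below the floor, so that d/d was at least 2.14-fold lower. It is the 1 troponin gene past 2-fold in heart, and its f/f signal there was 0.229% of that in f/f muscle. The call was lost with a floor at the 60th percentile and with a pseudocount of 16 in place of the floor. Tnni2 and Tnnt3, the other fast subunits, were below the floor in both hearts on their brightest probe sets.

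Part of the other cardiac and slow muscle genes read lower in d/d muscle as well, and part did not. The cardiac troponin signals in f/f muscle came to 1.64% of those in f/f heart for Tnni3, 2.21% for Tnnt2 and 4.32% for Tnnc1. In d/d they were 0.178%, 0.766% and 1.98% of d/d heart. Of 21 genes on a list of cardiac muscle markers, 20 were at least 2-fold higher in f/f heart than in f/f muscle. Of the 20, 13 were above the floor in f/f muscle and 12 in d/d muscle. Myh6 read 186.3 in f/f muscle and 74.1 in d/d muscle, or 2.60% and 1.09% of heart, and the myosin-binding gene Mybpc3 47.9 and 10.4, or 1.28% and 0.238%. Other genes of the list did not read lower as a share of heart. Among these were the cardiac actin gene Actc1, at 31.4% in f/f and 35.7% in d/d, and the connexin gene Gja1, at 13.6% and 15.2%. Also among them were the atrial light chain gene Myl4, at 6.19% and 9.58%, and Kcnj3, at 20.5% and 47.1%. For Actc1, Gja1 and Kcnj3 the muscle signals were nearly level and the heart signals were lower in d/d. The calcium pump inhibitor Pln kept nearly level, at 0.963% and 0.858%, and the other atrial light chain gene Myl7 and the calcium channel Ryr2 were at the floor in both muscles. The summed signal of the list was 5229 in f/f muscle and 3186 in d/d muscle, with 8 and 9 of 21 genes at the floor, and 47377 and 49318 in f/f and d/d heart. Csrp3, which read 1979 in f/f muscle and 249 in d/d muscle, carried most of that difference, and without it the muscle sums were 3250 and 2937. The part of the cardiac markers in the troponin result was not tested. In heart, where the cardiac troponin genes differed little on their brightest probe sets, 20 genes of the list were measured. The peptide gene Nppb was 2.51-fold higher in d/d there, and Bmp10, the potassium channel gene Kcnj3 and Ryr2 were 3.11-fold, 2.43-fold and 2.24-fold lower. The slow and embryonic ventricular myosin Myh7, of the slow fibre list, was 3.47-fold higher in d/d heart, at 3953 against 1140.

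Of the cardiac list, 16 genes were measured in the muscle pair, of which 12 were below 0, 6 were at least 2-fold lower in d/d and 1 was higher, with a median log2 difference of -0.27. The lower ones were Csrp3, a stretch-related LIM protein, at 7.95-fold, the natriuretic peptide genes Nppb at 5.29-fold or more and Nppa at 4.14-fold, Mybpc3 at 4.61-fold, Myh6 at 2.51-fold, and Fhl2 at 2.10-fold or more. Only 9 of the 16 genes were above the floor on both muscle arrays, of which 8 were below 0 and 4 were at least 2-fold lower, while 4 were above it only in f/f and 3 only in d/d. The higher one, Tbx5, a cardiac transcription factor, read 18.8 against a signal below the floor. Of 15 slow fibre genes, which overlap the cardiac ones, 14 were below 0 and 1 was above it, with a median of -0.85. Their summed signal was 20029 in f/f muscle and 14341 in d/d muscle. The slow myosin Myh7 read 107.1 in f/f muscle and 55.1 in d/d muscle, 1.95-fold lower and short of 2-fold. Of the 15 genes, 6 were at least 2-fold lower and 0 were higher. Besides Csrp3 these were the stretch-responsive gene Ankrd2 at 4.50-fold, the light chain Myl2 at 4.04-fold, the calcium pump regulator Sln at 3.66-fold, the M-band gene Myom3 at 3.44-fold and the Z-disc gene Myoz2 at 2.86-fold. Ankrd2 and Myom3 were brighter in muscle than in heart, with Ankrd2 at 1235 in f/f muscle and at the floor in both hearts. Of 15 fast fibre genes, 0 passed 2-fold in muscle, 14 were above 0, and the median was 0.16.

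Fast fibre genes in heart are given beside Tnnc2. Of 15 such genes, 9 were above the floor on both heart arrays, of which 7 were below 0, 3 were at least 2-fold lower in d/d and 0 were 2-fold higher, with a median of -0.41. Another 4 were above the floor in f/f heart alone, as Tnnc2 was, and could only read lower in d/d. The parvalbumin gene Pvalb read 15.7 in f/f and 2.03 in d/d heart, and the fast calcium pump Atp2a1 24.1 and 3.27, both below the floor in d/d. Of the genes above it on both arrays, Mybpc2, Tmod4 and Casq1 were 2.65-fold, 2.59-fold and 2.22-fold lower. The summed signal of the list was 7058 in f/f heart and 6091 in d/d heart, with 2 and 6 of 15 genes at the floor. Most of both sums came from Eno3, at 3592 in f/f and 3591 in d/d heart, and Pfkm, at 2679 and 2021. Pfkm also carried most of the difference between the sums, which therefore says little about the dim genes of the list. The fast myosin Myh2 and the Z-disc gene Myoz1 read higher in d/d, at 7.74 and 11.6 in f/f heart and 9.54 and 15.6 in d/d heart. The d/d heart array also had the lowest share of probe sets above the floor, 58.0% against 61.1% on the f/f heart array. The part of these markers and of the floor in the Tnnc2 result was not tested.

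**Figure D3:**
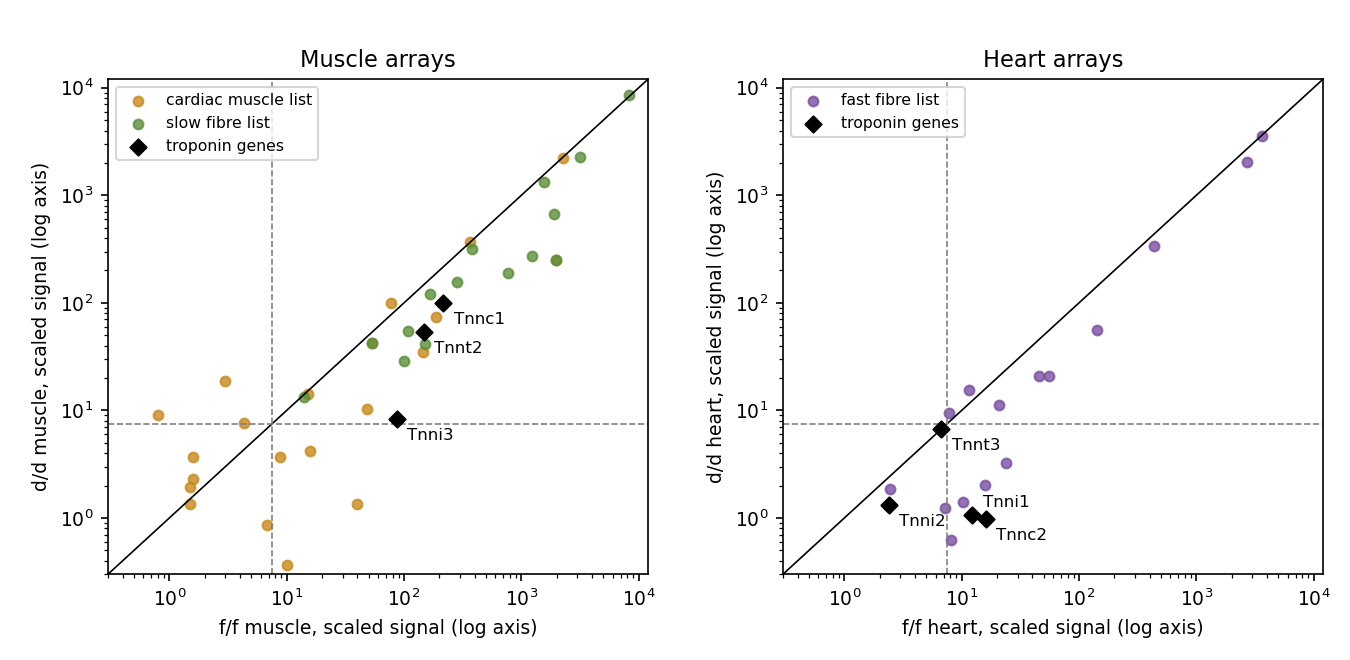
Scaled signal of marker genes in f/f (horizontal) against d/d (vertical), both on log axes, for the muscle arrays with the cardiac and slow fibre lists (left) and the heart arrays with the fast fibre list (right). Each point is 1 gene, diamonds are troponin genes, the solid line marks equal signal and dashed lines the floor. Tnni3, Tnnt2 and Tnnc1 lie below the line among the cardiac and slow genes of muscle, and Tnnc2 and Tnni1 lie below it in heart beside Pvalb and Atp2a1.

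Between the tissues, 7 of the 8 genes were at least 2-fold different in either genotype. In f/f mice 3 were higher in heart and 4 in muscle, against 12.1% and 8.3% of 14364 genes. In d/d mice the counts were also 3 and 4, against 15.1% and 10.5% of 14124 genes. Tnni3 was 61.1-fold higher in heart than in muscle in f/f and 562.2-fold in d/d, Tnnt2 45.2-fold and 130.6-fold, and Tnnc1 23.2-fold and 50.6-fold. The d/d value of Tnni3, a log2 difference of 9.13, was 7.94 with a floor at the 60th percentile and 7.59 with a pseudocount of 16. The brightest probe set of Tnni2 was higher in muscle by at least 1293-fold in f/f and 1348-fold in d/d, while its second, above the floor on all 4 arrays, gave 408.2-fold and 368.7-fold. Tnnt3 was higher in muscle by at least 1282-fold and 1333-fold. Tnnc2 was 436.0-fold higher in f/f muscle and at least 986.7-fold higher in d/d muscle. Tnni1 was 3.65-fold higher in f/f muscle and at least 5.27-fold higher in d/d muscle. Tnnt1 differed by 1.17-fold and 1.33-fold. These comparisons use the same 4 arrays as the genotype comparisons, so a lower signal in d/d muscle enters both.

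A fit over all 4 arrays (limma, genotype and tissue as terms, 13497 genes that exceeded the floor on 2 or more arrays, 2 arrays per tissue) allowed a test of each term. For tissue it called 7 of the 8 troponin genes, 3 higher in heart and 4 in muscle, against 7.97% and 5.66% of genes. The log2 difference of heart minus muscle was 7.53 (SE 0.72) for Tnni3, 6.26 (SE 0.42) for Tnnt2 and 5.10 (SE 0.35) for Tnnc1, with limma adjusted p of 0.00393, 0.00108 and 0.0012. It was -10.37 (SE 0.26) for Tnni2 and -10.35 (SE 0.26) for Tnnt3, both at a limma adjusted p of 0.000146, and -9.36 (SE 0.36) for Tnnc2, at 0.000331. For Tnni1 it was -2.13 (SE 0.28, limma adjusted p 0.0104). Tnnt1, at -0.32 (SE 0.26, limma adjusted p 0.459), was not called. Tnni2 and Tnnt3 passed the filter through the muscle arrays alone, and both of their heart values were set to the floor. Their differences and SE therefore rest on the floor, and their p-values are no support for a tissue difference. For Tnnc2 and Tnni1 the d/d heart value alone was set to the floor. With every gene kept, or with a floor lowered to the 20th percentile, the limma fit called 0 troponin genes and 0 genes in all, although 3631 and 3491 genes had an unadjusted p under 0.05.

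For genotype averaged over the tissues the limma fit called 0 of the 8 troponin genes and 0% of 13497 genes, with 570 genes and 0 troponin genes at an unadjusted p under 0.05. Tnni3 had the largest averaged difference of the 8, -1.79 (SE 0.72, unadjusted limma p 0.0516, adjusted p 0.9998). The fit leaves 1 residual degree of freedom and takes a difference between the tissues as error. The genotype difference in muscle minus that in heart was -3.20 for Tnni3, -1.53 for Tnnt2, -1.13 for Tnnc1 and 1.18 for Tnnc2, and 4 arrays leave no test of these values.

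The partners of troponin on the thin filament mostly stayed within 2-fold. Of 26 matched genes of the thin filament list, 24 were measured in heart, where 1 passed 2-fold upward in d/d and 1 downward, and 26 in muscle, where 0 passed it upward and 1 downward. The medians were -0.002 in heart and -0.07 in muscle. Skeletal actin, Acta1, read 1499 in f/f and 4668 in d/d heart, 3.11-fold higher, and cardiac actin, Actc1, 7209 and 6286. In muscle Actc1 read 2265 in f/f and 2241 in d/d, level where the cardiac troponins were not. Of the tropomyosins, which carry troponin T, Tpm1 read 6917 in f/f muscle and 7463 in d/d muscle, Tpm2 5114 and 4318, and Tpm3 165.6 and 121.5. Their log2 differences in muscle were 0.11, -0.24 and -0.45. The cardiac nebulin relative Nebl read 1290 in f/f heart and 1034 in d/d heart and was at 11.5 in f/f muscle and below the floor in d/d muscle. Xirp1, an actin-binding repeat protein, was the lower one in muscle, at 2.19-fold, and the fast-fibre tropomodulin Tmod4 the lower one in heart, at 2.59-fold.

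Of 23 matched genes for kinases, phosphatases and proteases that act on troponin, 1 passed 2-fold in heart and 0 of 22 in muscle. The 1 was the matrix protease Mmp2, which can cleave troponin I, at 2.08-fold higher. Of 34 matched transcription factors and cofactors of cardiac and fibre-type genes, 31 were measured in heart, with 1 higher, the calcineurin inhibitor Rcan1 at 2.63-fold, and 1 lower, the slow gene repressor Sox6 at 2.47-fold. In muscle 30 were measured, with Tbx5 higher and Gata6 lower by at least 2.41-fold. Of 11 splicing factors known to act on muscle transcripts such as troponin T, 1 passed 2-fold in heart and 0 in muscle. It was Rbfox1, which read 289.9 in f/f and 70.5 in d/d heart, 4.11-fold lower. Which splice forms the 3 Tnnt2 probe sets read is not stated.

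Markers of other cells differed as well. Fibroblast markers had 9 of 10 above 0 in d/d heart, with a median of 0.81, and 0 of 10 above 0 in d/d muscle, with a median of -0.75. Macrophage markers had 8 of 9 above 0 in heart (median 0.53) and 0 of 8 in muscle (median -0.61). Regenerating muscle markers had 6 of 9 above 0 in d/d muscle, with a median of 0.19. Of these 9 markers, 1 was at least 2-fold lower, the embryonic myosin Myh3 at 3.14-fold, and 0 were higher. Smooth muscle markers had medians of 0.002 in heart and -0.18 in muscle, and endothelial markers 0.37 and 0.18. The adipocyte, red cell and nerve lists had 3 measured genes each, with medians of -0.37, -0.63 and -0.48 in heart and -1.20, 0.45 and 0.54 in muscle. Their part in the troponin differences was not tested.

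The genes with the profile most like each troponin gene were found by the Euclidean distance between mean-centred log2 signals of the 4 arrays. Candidates were genes above the floor on the same arrays. For Tnni2, Tnnt3 and their candidates both heart values were set to the floor, so their distances rest on the muscle signals alone. For Tnnc2, Tnni1 and their candidates the d/d heart value was set to it. With 4 arrays such likeness is a description. For Tnni3 the nearest of 10534 genes were Mybpc3 (distance 0.88), the desmosomal gene Dsp (1.49) and Nppa (1.85). For Tnnt2 they were Myh6 (0.39), Myzap (0.58) and Nppa (0.72), and for Tnnc1 Serpinb6b (0.19), the slow and cardiac calcium pump Atp2a2 (0.40) and Perp (0.52). Dsp, Myzap and Perp encode proteins of cell junctions. For Tnni2 the nearest of 425 genes were Actn3 (0.17), Mybpc1 (0.86) and the muscle calcium release channel Ryr1 (0.96). Tnnt3 had the same 3, at 0.17, 0.85 and 0.95. For Tnnc2 they were Pvalb (0.18), Atp2a1 (0.42) and the fast myosin Myh4 (0.67) of 393 genes, and for Tnni1 Fgfbp1 (0.26), Tk1 (0.33) and Unc5a (0.40). Tnnt1 spanned under 1 on the log2 scale and was left out.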

How the data were processed

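The authors deposited 1 table of linear intensity per probe set for 4 arrays. The sources used here do not give how these deposited values were made from the scans. The table has 45101 probe sets, of which 64 array controls were left out. Arrays were scaled so that their 2% trimmed means met the mean of the 4, signals under a floor (mean 40th percentile, 7.51) were set to it, and log2 was taken. Scale factors were 0.884 and 0.850 for d/d and f/f heart and 1.22 and 1.15 for d/d and f/f muscle. Probe sets with 1 symbol (34945) were named through the platform annotation and RefSeq, 932 had several symbols and 9160 were unlisted.

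Folds between 2 arrays carry no test. The fit across all genes used limma 3.58.1 in R 4.3.3, with Benjamini-Hochberg adjustment at 0.05, after a check on simulated data. That check set a condition only on the mean error of the estimated change. It gave all genes the same noise SD, so it does not bear on the number of genotype calls. The number of arrays limits the precision. The genes named were the 8 troponin genes, genes of the thin filament, slow fibre, fast fibre and cardiac lists past 2-fold between genotypes (up to 6 per list and direction), Sod2 and the 3 most alike genes per troponin gene. Genes of other lists, and list genes within 2-fold, were chosen after their values were seen. The members and lists were chosen with earlier results of these data known. Alternatives were other scalings, floors, probe set choices, fold thresholds and filters. RefSeq proteins were not used here.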

Additional observations from a re-analysis of the deposited data

Results flagged for a closer look

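Both results here have genotype differences of opposite sign in heart and muscle, with at least 1 of the pair past 2-fold. The difference between the tissues was not tested, because 4 arrays in 4 groups leave no residual degrees of freedom. On its brightest probe set Tnnt2, cardiac troponin T, differed by 0.09 in heart and -1.45 in muscle, so the muscle difference minus the heart difference was -1.53. Tnnc2, fast troponin C, differed by -1.10 in heart, where d/d was at the floor and the size is a lower bound, and by 0.08 in muscle, so the same value was 1.18. Its muscle difference ran from -0.04 to 0.08 over the scalings and floors tried, so its sign there turned. The heart difference of the brightest Tnnt2 probe set ran from 0.03 to 0.26 over the settings tried, beside an SD of 0.132 between bright probe sets of a gene. The dimmest Tnnt2 probe set had the same sign in both tissues, -0.50 in heart and -0.25 in muscle, the latter a bound, so its muscle difference minus its heart difference was 0.25.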

How the results depend on the processing

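With 1 array per group, no replicate could be left out, and no paired analysis was possible because each group holds 1 array. The 3 troponin genes at least 2-fold lower in d/d muscle, Tnni3, Tnnt2 and Tnnc1, were the same under the other 8 scalings, floors and probe set choices and at 1.5-fold, and at 3-fold 1 was left, Tnni3. The log2 difference of Tnni3 in muscle ran from -3.47 to -2.08, that of Tnnt2 from -1.95 to -1.22 and that of Tnnc1 from -1.22 to -1.02. In heart the count of 1 was 2 at 1.5-fold and with a floor at the 20th percentile, with Tnni1 added, and 0 with a floor at the 60th percentile, with a pseudocount of 16 and at 3-fold. With only genes above the floor on both arrays, a restriction chosen after seeing the data, it was 0 of 4 in heart and stayed 3 in muscle. Tnnc2 there ran from -2.90 to -0.92 over the 8 settings that measured it. Between the tissues the same 7 genes differed under each of these scalings, floors, probe set choices and fold thresholds, and the log2 difference of heart minus muscle in d/d ran from 7.59 to 9.46 for Tnni3 and from -10.40 to -8.53 for Tnni2. The 7 genes called for tissue by limma were 3 with genes above the floor on all 4 arrays, where only 4 troponin genes were tested, and 0 with no filter or with the lower floor, where 0 genes in all were called. The genotype fit called 0 troponin genes under every alternative, with 0 to 3 of them at an unadjusted limma p under 0.05, 3 with a mean-variance trend. With that trend 594 of all 13497 genes had such a p, and 1 gene in all was called.

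Without rescaling, the median of all genes moved from 0.08 to 0.47 for f/f heart against f/f muscle and from 0.01 to 0.45 for d/d. The genes higher and lower in heart were then 3420 and 667 in f/f, against 1741 and 1192, and 3748 and 752 in d/d, against 2134 and 1485, and limma called 2839 and 502, against 1076 and 764. Scaling to the median moved the heart genotype median from -0.05 to 0.12, with 823 genes higher and 392 lower against 545 and 584. In muscle the deposited values gave 203 higher and 450 lower against 376 and 463. The sign of the small muscle differences of Tnni2, Tnnt3 and Tnnc2 turned with the scaling, with ranges of -0.07 to 0.11, -0.03 to 0.06 and -0.04 to 0.08. The heart differences of Tnnt1 and Tnnc1 crossed 0 as well, at -0.23 to 0.003 and -0.06 to 0.17. Of 284 values of single genes under alternatives, 252 moved by less than the SD between probe sets, 32 by more and 0 changed sign past 2-fold. Signals near the floor, as of Tnni3 in d/d muscle and Tnnc2 in heart, limit these folds.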
